A study of Homo sapiens with 6 samples.

Results

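PRAME and 7 genes of the PRAMEF cluster, namely PRAMEF4, PRAMEF7, PRAMEF9, PRAMEF15, PRAMEF25, PRAMEF26 and PRAMEF27, are described here, 8 genes of the 20263 in the count table. They were taken by symbol, and the set had been chosen by its counts in this same comparison, because the cluster genes rose together in the overexpression libraries. Their differences between the groups are therefore given as a description without a p-value, and nothing is read from how many of them differed. The joint rise that defined the set held for the 7 PRAMEF genes and not for PRAME, whose counts did not rise. Summed over the 7 genes, PRAMEF counts were 2.49-fold higher with LINC01518, PRAMEF9 and PRAMEF27 made up most of them, and every PRAMEF gene had a mean level in TPM, a length-scaled unit, far below that of PRAME. Gene expression was measured by sequencing total RNA of cells labelled LNCaP, a long-established human line derived from a prostate cancer. All 6 libraries came from cells that had received a vector. In 3 of them it was empty, and in the other 3 it carried LINC01518, a long non-coding RNA, per the sample labels. The design text of the series gives the insert as MEG3, a different long non-coding RNA. The groups are named here after the sample labels, and the level of neither RNA was analysed here. Nothing in the labels shows that replicates were grown as separate cultures. A p-value here therefore reflects the spread of these 6 libraries, part or all of which may be technical.

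PRAME, first found as a tumour antigen on melanoma, is a leucine-rich repeat protein that is active in testis and silent in most other healthy tissues. It acts as a substrate receptor of a cullin-2 ubiquitin ligase and is known as a repressor of retinoic acid receptor signalling. The PRAMEF genes are its relatives on the short arm of chromosome 1, a block of young primate gene copies that are known for expression in germ cells and in the early embryo, where the transcription factor DUX4 can switch them on. The individual functions of the 7 PRAMEF proteins are little known.

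In GENCODE release 29 on build GRCh38, the PRAMEF genes of the table lay at chr1:12774841-13421328, a span of 646.5 kb. The span held 26 genes of the table, of which 22 were PRAMEF genes and 4 were HNRNPCL genes, which are copies of the RNA-binding protein gene HNRNPC. PRAMEF4 lay at chr1:12879224-12886201 on the minus strand and PRAMEF7 at chr1:12916610-12920482 on the plus strand. PRAMEF27 lay at chr1:13049476-13056491 on the minus strand and PRAMEF25 at chr1:13068677-13077884 on the plus strand. PRAMEF26 lay at chr1:13148905-13155961 on the minus strand and PRAMEF9 at chr1:13172455-13179464 on the plus strand. PRAMEF15 followed at chr1:13315581-13322598 on the plus strand. PRAME lay on another chromosome, at chr22:22547701-22559361 on the minus strand.

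Except for PRAMEF7, the PRAMEF genes described here are near-copies of each other, which bears on every count below. A coding stretch of 60 bases is shown for the 7 genes to make this visible. It runs from base 227 to base 286 of the coding sequence, counted from the first base of the start codon (221 to 280 in PRAMEF7). The sequences were taken from the GENCODE release 29 transcripts, and a capital marks a base that differs from PRAMEF9.
PRAMEF9: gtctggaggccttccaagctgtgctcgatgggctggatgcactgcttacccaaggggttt
PRAMEF27: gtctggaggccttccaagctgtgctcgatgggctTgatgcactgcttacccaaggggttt
PRAMEF15: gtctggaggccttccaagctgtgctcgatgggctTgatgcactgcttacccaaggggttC
PRAMEF4: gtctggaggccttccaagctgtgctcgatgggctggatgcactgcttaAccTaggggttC
PRAMEF25: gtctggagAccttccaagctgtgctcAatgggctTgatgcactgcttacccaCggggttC
PRAMEF26: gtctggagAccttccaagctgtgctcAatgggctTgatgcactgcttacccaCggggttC
PRAMEF7: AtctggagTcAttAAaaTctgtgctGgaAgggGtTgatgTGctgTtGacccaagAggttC
PRAMEF25 and PRAMEF26 were identical over these 60 bases, and PRAMEF27 differed from PRAMEF9 at 1 base. PRAMEF7 differed from PRAMEF9 at 16 of the 60. Over the whole coding sequence of the 6 genes without PRAMEF7, 52 of 1434 aligned columns differed in any of them, which is 3.63%.

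Over whole transcripts, PRAMEF25 and PRAMEF26 differed in 2 of 1863 aligned columns, PRAMEF9 and PRAMEF27 in 8 of 1863, and PRAMEF4 and PRAMEF15 in 21 of 1828. The 6 genes were 97.1% to 99.9% identical in pairs. PRAMEF5, PRAMEF6 and PRAMEF11, which are not among those described, were as close to them, at 97.6% to 98.4%. PRAMEF7 was 70.4% to 70.8% identical to them, and its closest relative in the cluster was PRAMEF8, at 98.8%. Every 100-base window of the PRAMEF26 transcript also occurred in another annotated gene, as did 96.8% of the windows of PRAMEF25. The share was 76.4% in PRAMEF9, 73.2% in PRAMEF7, 63.7% in PRAMEF27, 57.4% in PRAMEF15 and 43.4% in PRAMEF4. It was 0% in PRAME, whose transcript had no such window in common with any other gene. How reads that match several genes were counted is not given in the sources used here, so reads of the near-copies could have been divided among them and the 7 PRAMEF values are not independent. For this reason the counts are also given summed.

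**Figure D1:**
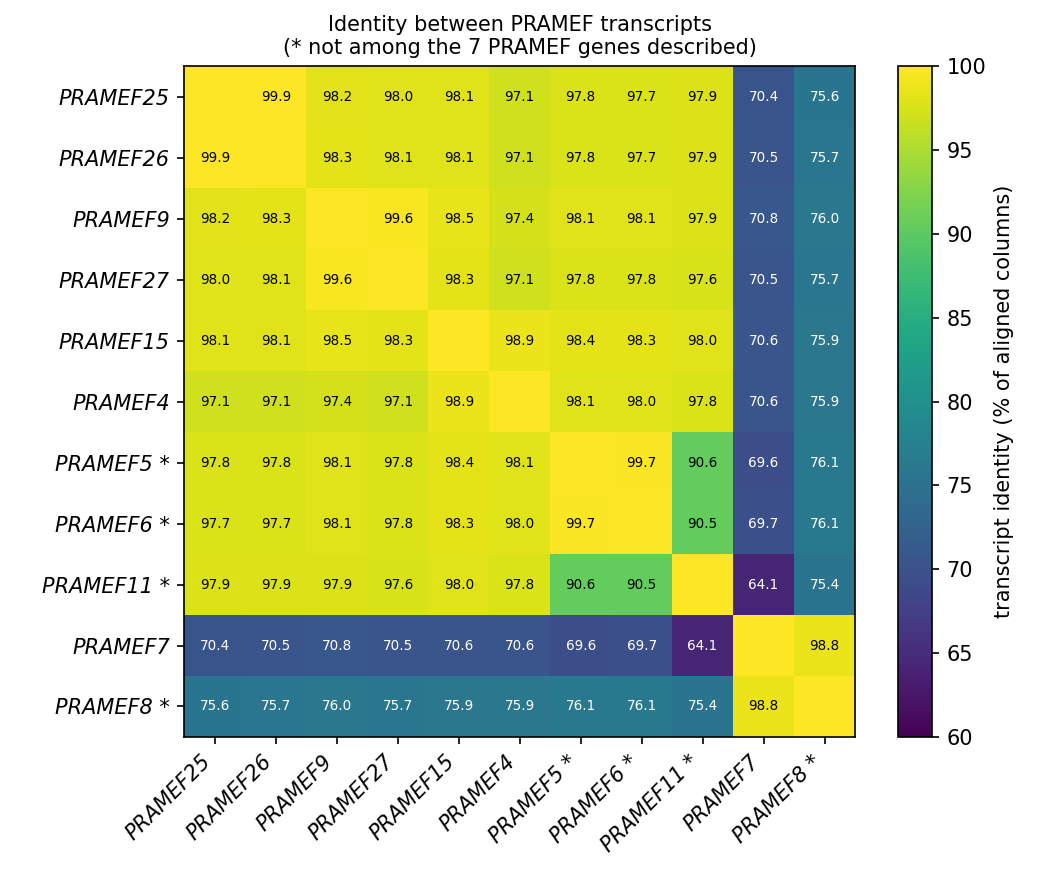
Identity between the transcripts of the 7 PRAMEF genes and of 4 relatives in the cluster (marked by a star), as the percentage of aligned columns that match, with colour from 60% to 100%. The 6 genes from PRAMEF25 to PRAMEF4 are 97.1% or more identical to each other, and PRAMEF5, PRAMEF6 and PRAMEF11 are 97.6% to 98.4% identical to them, whereas PRAMEF7 pairs with PRAMEF8 at 98.8%.

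The 150 bases before the transcription start are shown for the members that the RefSeq promoter table (build GRCh38.p14) held, to show which of them share a promoter sequence. The table held PRAMEF4, PRAMEF7, PRAMEF15, PRAMEF26 and PRAME. PRAMEF9, PRAMEF25 and PRAMEF27 had no entry. PRAMEF20, a cluster gene with almost no counts, is set beside them. The windows were chr1:13315431-13315580 (plus strand) for PRAMEF15, chr1:12886202-12886351 (minus) for PRAMEF4, chr1:13410300-13410449 (plus) for PRAMEF20, chr1:13156010-13156159 (minus) for PRAMEF26 and chr1:12916460-12916609 (plus) for PRAMEF7. Each window ends at the gene's own RefSeq start, which does not fall on the same aligned base in every gene. Capitals mark the motif CCAAT, which reads ATTGG when it lies on the opposite strand, and the motif ATAAAA.
PRAMEF15: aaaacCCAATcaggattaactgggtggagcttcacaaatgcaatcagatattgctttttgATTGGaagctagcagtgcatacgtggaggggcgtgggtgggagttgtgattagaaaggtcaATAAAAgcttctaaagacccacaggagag
PRAMEF4: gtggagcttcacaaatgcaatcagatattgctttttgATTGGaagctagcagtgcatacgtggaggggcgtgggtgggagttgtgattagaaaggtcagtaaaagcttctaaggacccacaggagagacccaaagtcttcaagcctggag
PRAMEF20: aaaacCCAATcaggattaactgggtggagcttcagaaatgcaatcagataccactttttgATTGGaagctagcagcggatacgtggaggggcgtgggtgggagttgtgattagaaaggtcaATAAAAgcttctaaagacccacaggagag
PRAMEF26: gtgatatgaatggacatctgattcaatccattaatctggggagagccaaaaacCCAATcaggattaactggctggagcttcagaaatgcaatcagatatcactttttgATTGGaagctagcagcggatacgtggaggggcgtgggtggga
PRAMEF7: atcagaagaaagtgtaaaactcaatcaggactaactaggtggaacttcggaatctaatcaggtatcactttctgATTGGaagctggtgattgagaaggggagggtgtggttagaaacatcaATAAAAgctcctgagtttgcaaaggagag
In 250 bases before the start, searched on both strands, CCAAT was found 2 times each in PRAMEF15, PRAMEF4, PRAMEF20 and PRAMEF26 and 1 time in PRAMEF7. The first of them in PRAMEF4 lies further from the start than the stretch shown. Of 35116 RefSeq promoter windows of the same length, 32% held this motif. The TATA-like motif ATAAAA was found at position -29 from the start in PRAMEF15, PRAMEF20 and PRAMEF7 and not in the windows of PRAMEF4, PRAMEF26 or PRAME, and 14.8% of all windows held it. The half-site AGGTCA, which nuclear receptors bind, was found in PRAMEF15, PRAMEF4 and PRAMEF20 and not in the windows of PRAMEF26, PRAMEF7 or any of the 3 RefSeq starts of PRAME, and 12.1% of all windows held it. The PRAMEF26 window ends before the bases that align with ATAAAA and AGGTCA in PRAMEF15, so it could not show either motif at that place. The pattern TAANNNAATCA, written after the DUX4 motif, was found in PRAMEF7 and in 0.817% of all windows. In PRAMEF7 it lies at position -165, further from the start than the stretch shown. PRAMEF8, the near-copy of PRAMEF7, held it too.

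The promoter windows of PRAMEF15 and PRAMEF4 were 89.6% identical over 250 bases, and the part of the PRAMEF26 window that aligned with PRAMEF15 was 94.1% identical over 202 columns. The PRAMEF15 and PRAMEF20 windows were 93.2% identical. PRAMEF15 had 37 to 106 counts in each library, and PRAMEF20 had 2 counts in overexpression replicate 2 and 0 in every other library. Of the 100-base windows of PRAMEF15, 57.4% also occurred in other genes, against 0% in PRAMEF20, so PRAMEF15 could hold reads of its near-copies. The part of the promoter sequence in these counts was not tested. PRAMEF7 shared a promoter sequence with PRAMEF8, with 213 aligned columns identical. The PRAME window at its first RefSeq start was richer in G and C, at 58.4% against 42.8% in PRAMEF15, and held 9 CpG dinucleotides against 3.

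Taken as a sum over the 7 PRAMEF genes, the libraries held 368, 512 and 349 counts with the empty vector and 1091, 1076 and 797 with LINC01518. After scaling to library size with TMM factors (CPM, counts scaled to library size), the sums were 8.98, 12.01 and 9.01 CPM in the empty vector libraries and 25.98, 27.3 and 21.1 CPM in the overexpression libraries. The groups did not overlap, and the lowest overexpression library was 1.76 times the highest empty vector library. The means were 9.998 ± 1.74 and 24.8 ± 3.29 CPM (SD, n = 3 each), a log2 difference of 1.32 with a standard error (SE) of 0.18, or 2.49-fold. A value after ± is the SD of 3 libraries for a level and the SE for a log2 fold change. Of the 13543 genes with enough counts to be fitted, 15.9% had all 3 overexpression libraries above all 3 empty vector libraries. All 7 PRAMEF genes were in that class, which is how they came to be chosen, and PRAME was not. In bulk RNA, more cells that express a gene and more RNA per cell cannot be told apart.

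The most abundant of the 7 was PRAMEF9, with 149, 202 and 131 counts in the empty vector libraries and 450, 431 and 287 in the overexpression libraries. It stood at 3.92 ± 0.72 CPM with the empty vector and 9.76 ± 1.87 CPM with LINC01518, and its fitted log2 fold change was 1.31 (SE 0.18). Overexpression replicate 3 was the low library of its group and still lay above every empty vector library.

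PRAMEF27, the closest copy of PRAMEF9, had 97, 139 and 93 counts against 301, 282 and 230. Its means were 2.68 ± 0.51 and 6.81 ± 0.62 CPM, with a log2 fold change of 1.35 (SE 0.16). PRAMEF9 and PRAMEF27 together held 246, 341 and 224 counts against 751, 713 and 517, which was 65.99% of the 7-gene sum in the empty vector group and 66.8% in the overexpression group. The pair sum does not depend on how reads were divided between them, and its log2 difference was 1.33 (SE 0.20).

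PRAMEF25 had 42, 57 and 39 counts against 106, 109 and 78, and PRAMEF26 had 28, 43 and 29 against 81, 82 and 54. Both had their highest empty vector value in replicate 2 and their lowest overexpression value in replicate 3. The log2 fold changes were 1.12 (SE 0.20) for PRAMEF25 and 1.15 (SE 0.24) for PRAMEF26, the smallest of the 7. Their transcripts can hardly be told apart, and their summed counts of 70, 100 and 68 against 187, 191 and 132 gave a log2 difference of 1.14 (SE 0.20).

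PRAMEF15 had 37, 52 and 41 counts against 106, 103 and 106, with a log2 fold change of 1.32 (SE 0.18). Its overexpression libraries lay closest together of the 7 genes, with a coefficient of variation of 5.41% in CPM. PRAMEF4 had 11, 14 and 12 counts against 32, 54 and 25, with a log2 fold change of 1.61 (SE 0.36), and its overexpression libraries spread most, with a coefficient of variation of 41.3%. Without overexpression replicate 2 its log2 fold change was 1.23. The 2 genes summed gave 48, 66 and 53 counts against 138, 157 and 131, a log2 difference of 1.40 (SE 0.14).

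PRAMEF7 was the least abundant of the 7, with 4, 5 and 4 counts against 15, 15 and 17. It passed the filter on low counts only through the overexpression group, so a difference was built into its presence among the fitted genes. Its fitted log2 fold change of 1.87 (SE 0.39) was the highest of the 7 and rests on the fewest counts. With PRAMEF8, its near-copy, the sums were 8, 6 and 8 counts against 20, 23 and 24.

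**Figure D2:**
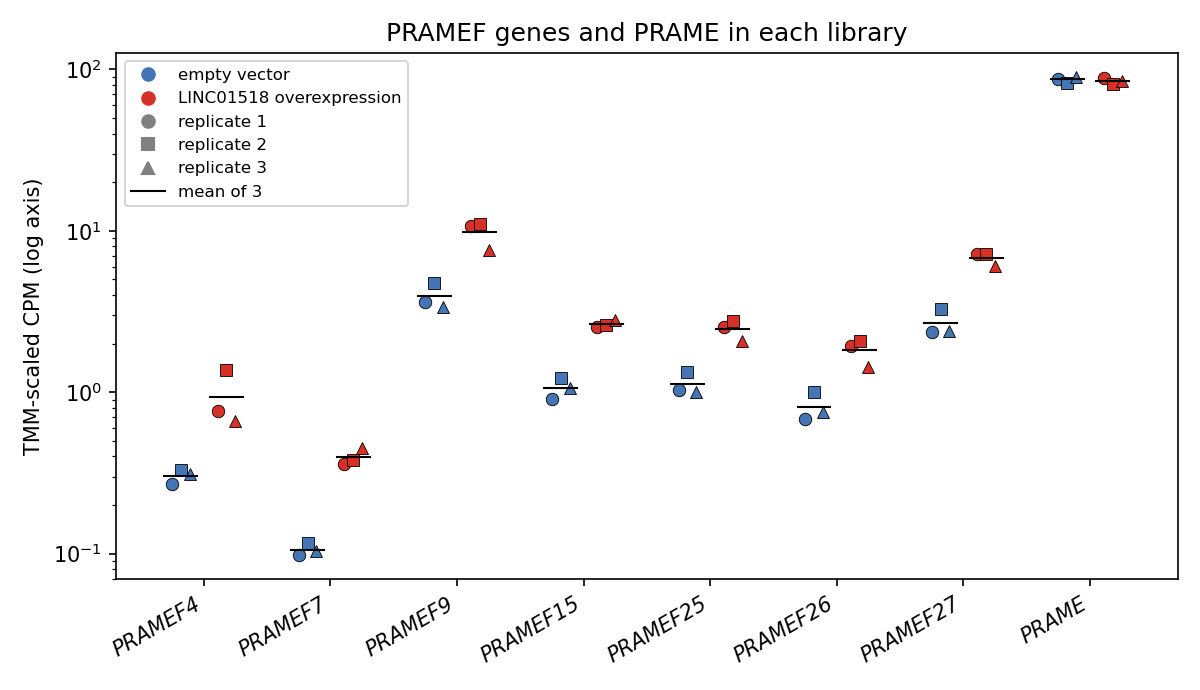
CPM (TMM-scaled, log axis) of the 7 PRAMEF genes and PRAME in each of the 6 libraries, by group (colour) and replicate (symbol), with the group mean as a line. The groups do not overlap for the 7 PRAMEF genes, whereas the PRAME values of both groups lie together between 80.6 and 89.7 CPM.

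PRAMEF9 and PRAMEF27 together held between 64.2% and 68.8% of the summed PRAMEF counts in every library. PRAMEF9 held 39.2% of the summed counts with the empty vector and 39.4% with LINC01518, and between 36% and 41.2% in any library. PRAMEF27 held 26.8% and 27.4%, and PRAMEF15 held 10.6% in both groups. PRAMEF25 moved from 11.2% to 9.89% and PRAMEF26 from 8.14% to 7.32%. The low genes varied more, PRAMEF4 from 3.01% to 3.74% between the groups and between 2.73% and 5.02% in single libraries, and PRAMEF7 from 1.06% to 1.59% and between 0.977% and 2.13%. The part of shared reads in these proportions was not tested.

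**Figure D3:**
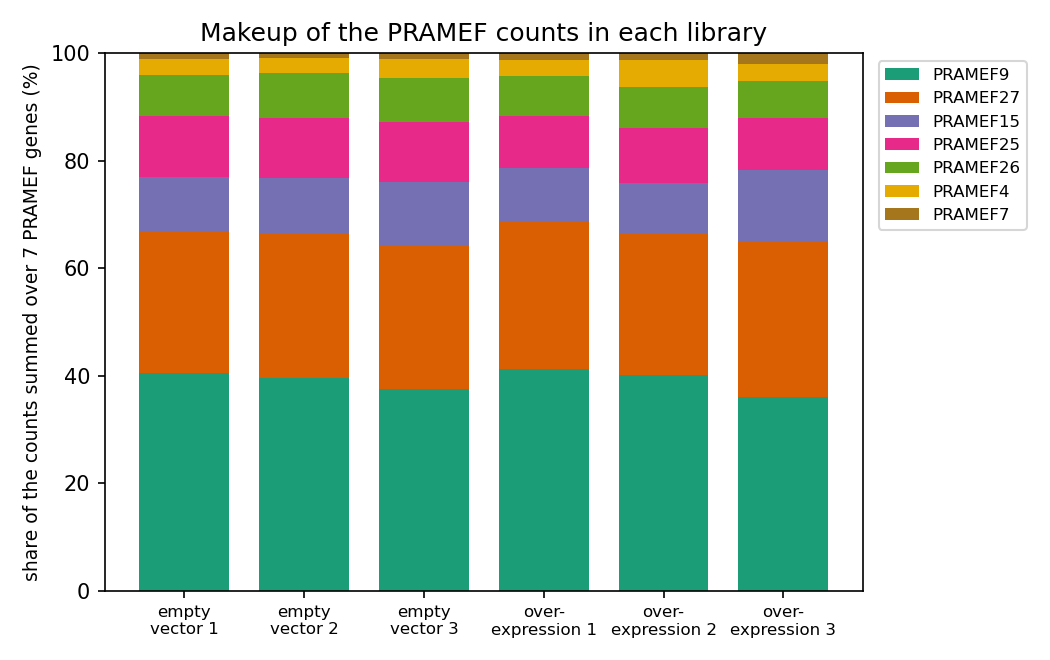
Share of the counts summed over the 7 PRAMEF genes that each gene took in each library, in percent. PRAMEF9 and PRAMEF27 fill about the same part of every bar, with PRAMEF9 between 36% and 41.2%.

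The 7 genes shared part of their order within a group. All 7 had their highest empty vector value in replicate 2, and 5 of the 7 had their lowest overexpression value in replicate 3. For PRAMEF4, PRAMEF7 and PRAMEF15 the spread of the empty vector libraries was no larger than counting error alone would give. In the empty vector group the coefficient of variation of the 7-gene sum was 17.4%, whereas counting error alone would give 4.94%. In the overexpression group these were 13.2% and 3.18%. Empty vector replicate 2 was also the most deeply sequenced of its group, with 42229418 counts, and overexpression replicate 3 the least of all 6, with 38161544. Other libraries did not follow depth. Overexpression replicate 1, the deepest of all 6 with 42553688 counts, held the highest overexpression value of 1 of the 7 genes. Empty vector replicate 3, the least deep of its group with 38541029, held the lowest empty vector value of 2 of the 7, and replicate 1 that of 5. The part of depth in this order was not tested.

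PRAME behaved differently. It had 3578, 3517 and 3474 counts with the empty vector and 3705, 3171 and 3184 with LINC01518, or 87.3, 82.5 and 89.7 CPM against 88.2, 80.6 and 84.3 CPM. The groups overlapped, with means of 86.5 ± 3.67 and 84.4 ± 3.82 CPM. The fitted log2 fold change was -0.04 (SE 0.06), near the median of all 13543 fitted genes, which was -0.0035. Overexpression replicate 1 was the highest of its group in CPM and the lowest in the deposited TPM, at 77.2 TPM, so the order of these libraries depended on the scale.

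Levels can be compared between genes in TPM, a unit that divides by transcript length. In the empty vector libraries PRAME stood at 89.3 ± 3.98 TPM, PRAMEF9 at 4.17 ± 0.80, PRAMEF27 at 2.84 ± 0.55, PRAMEF25 at 1.19 ± 0.20, PRAMEF15 at 1.12 ± 0.15, PRAMEF26 at 0.856 ± 0.188, PRAMEF4 at 0.318 ± 0.024 and PRAMEF7 at 0.117 ± 0.025 (SD, n = 3 each). In the overexpression libraries the levels were 81.0 ± 3.89 TPM for PRAME, 10.1 ± 1.98 for PRAMEF9, 7.04 ± 0.67 for PRAMEF27, 2.73 ± 0.14 for PRAMEF15, 2.56 ± 0.39 for PRAMEF25, 1.87 ± 0.36 for PRAMEF26, 0.971 ± 0.413 for PRAMEF4 and 0.459 ± 0.058 for PRAMEF7. PRAMEF25 and PRAMEF15 changed places between the groups, and their libraries overlapped in both. The libraries of PRAMEF26 overlapped with those of its neighbour above in both groups. The libraries of the other neighbours in the order did not overlap. The 7 PRAMEF genes summed to 10.6 ± 1.89 TPM with the empty vector and 25.7 ± 3.53 TPM with LINC01518, so PRAME alone stayed above the whole set. By mean TPM over the 6 libraries PRAME ranked 1982 among the 20263 genes, PRAMEF9 ranked 9698 and PRAMEF7 ranked 13320.

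The other 15 PRAMEF genes of the cluster were not among those picked, and 3 of them had enough counts for the fit. PRAMEF6 had 18, 41 and 16 counts against 65, 79 and 54, PRAMEF5 had 8, 13 and 8 against 22, 23 and 22, and PRAMEF11 had 17, 22 and 22 against 42, 43 and 28. In all 3 the overexpression libraries lay above every empty vector library in CPM, as they did in 15.9% of all fitted genes. None of the 3 passed edgeR's quasi-likelihood test with Benjamini-Hochberg adjustment over all 13543 genes. The log2 fold changes were 1.45 ± 0.35 (edgeR adjusted p = 0.0525) for PRAMEF6, 1.24 ± 0.32 (edgeR adjusted p = 0.0632) for PRAMEF5 and 0.92 ± 0.27 (edgeR adjusted p = 0.0909) for PRAMEF11. Over all genes, 759 passed this test, 484 higher and 275 lower, so 5.60% of tested genes were called and 3.57% were called higher. With scaling to library size alone the split was 346 higher and 382 lower. PRAMEF5 and PRAMEF6 share 81.4% of the 100-base windows of PRAMEF5, so these tests are not independent of each other or of the 7 genes described. PRAMEF6 passed in 5 of 16 alternatives. These were DESeq2 (adjusted p = 0.0152), limma-voom (adjusted p = 0.0427), edgeR with no count filter (adjusted p = 0.0421) or a filter of 50 counts (adjusted p = 0.0497), and edgeR without empty vector replicate 2, the library with 41 counts, where the log2 fold change was 1.95 (adjusted p = 0.0305). PRAMEF5, like PRAMEF7, passed the filter on low counts only through the overexpression group.

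The remaining PRAMEF genes were at or near 0. PRAMEF1 had 0 counts in the 3 empty vector libraries and 12, 4 and 3 in the overexpression libraries. PRAMEF2 had 2, 4 and 8 counts against 8, 5 and 4, and PRAMEF8 had 4, 1 and 4 against 5, 8 and 7. PRAMEF10, PRAMEF20 and PRAMEF33 never exceeded 2 counts in a library. PRAMEF12, PRAMEF13, PRAMEF14, PRAMEF17, PRAMEF18 and PRAMEF19 had 0 counts in all 6 libraries. LRRC14, a distant relative outside the cluster, had 1534 to 1573 counts with the empty vector and 1562 to 1863 with LINC01518, a fitted log2 change of 0.15 ± 0.07 (edgeR adjusted p = 0.237).

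The HNRNPCL genes sit among the PRAMEF genes, HNRNPCL3 between PRAMEF27 and PRAMEF25 and HNRNPCL4 between PRAMEF26 and PRAMEF9. HNRNPCL3 had 20, 26 and 23 counts with the empty vector and 51, 65 and 57 with LINC01518 and rose, with a log2 fold change of 1.36 ± 0.23 (edgeR adjusted p = 0.0191). The call was lost when overexpression replicate 2 or 3 or empty vector replicate 1 or 2 was left out, with an adjusted p of up to 0.0718, while the log2 fold change stayed between 1.27 and 1.48. HNRNPCL4 had 10, 15 and 6 counts against 25, 27 and 28, with a log2 fold change of 1.41 ± 0.35 (edgeR adjusted p = 0.0583), and 87.2% of its 100-base windows also occurred in HNRNPCL3. It too passed the filter only through the overexpression group. HNRNPCL1 had 0, 3 and 0 counts against 5, 4 and 3, and HNRNPCL2 had at most 2 in any library. The RefSeq promoter window of HNRNPCL2 was 84.4% identical to that of PRAMEF15 over 250 bases, and that of HNRNPCL1 was 74% identical. The HNRNPCL4 window was only 45.9% identical to that of PRAMEF15, over 279 aligned columns. HNRNPCL3 had no entry in that table.

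None of the 3 nearest fitted genes on each side of the cluster passed edgeR's test. Before its first gene, DHRS3, a retinal reductase, had a fitted log2 change of -0.11 ± 0.06 (edgeR adjusted p = 0.302), VPS13D of -0.14 ± 0.08 (edgeR adjusted p = 0.343) and TNFRSF1B of -0.08 ± 0.06 (edgeR adjusted p = 0.477). Beyond its last gene, LRRC38, a potassium channel subunit, had 190, 136 and 181 counts against 277, 279 and 227, with a log2 fold change of 0.66 ± 0.17 (edgeR adjusted p = 0.0599). DESeq2 called LRRC38 (adjusted p = 0.0189). PRDM2 stood at -0.63 ± 0.91 (edgeR adjusted p = 0.73), and between -1.68 and -0.29 with 1 library left out, and KAZN at 0.03 ± 0.08 (edgeR adjusted p = 0.847). No contrast between genes inside and outside the cluster is drawn, since 7 of the 12 fitted cluster genes were chosen for their rise and PRAMEF5 and HNRNPCL4 passed the filter only through the overexpression group.

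**Figure D4:**
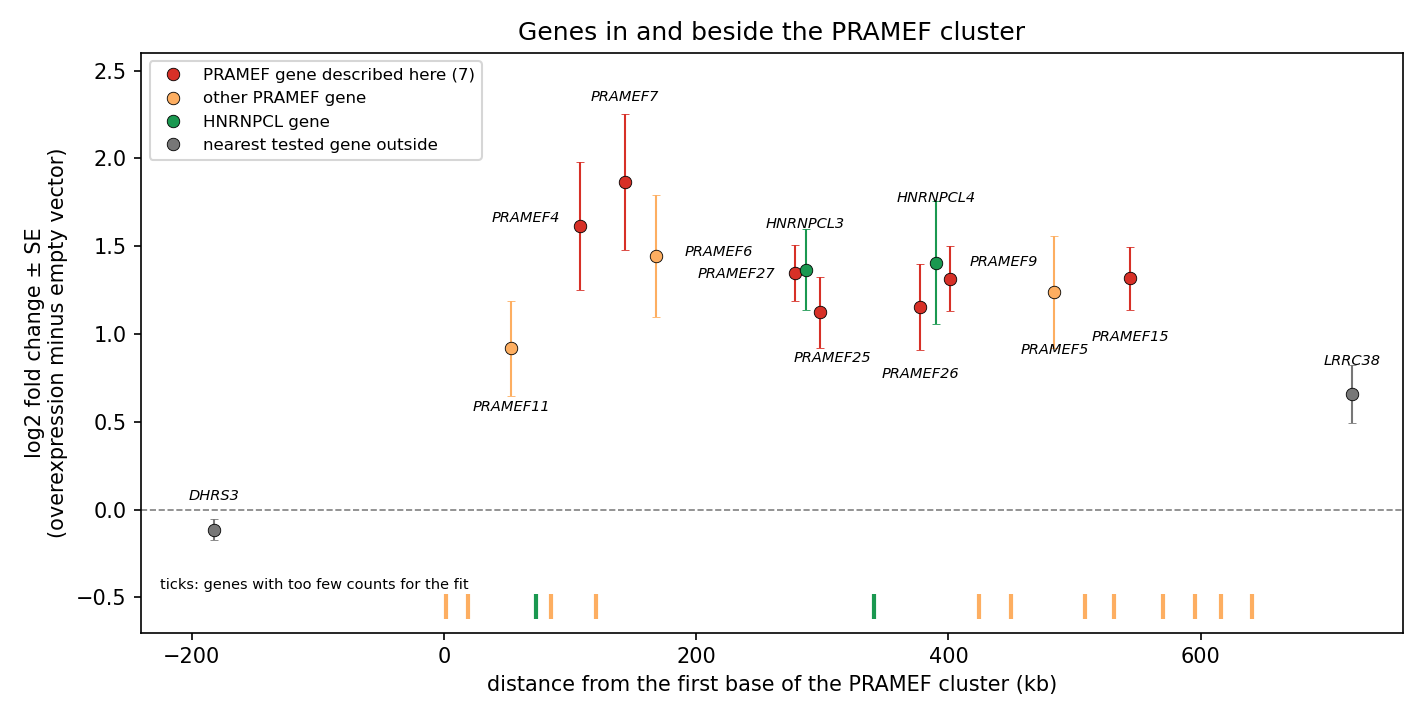
Log2 fold change (overexpression minus empty vector) with its SE for the fitted genes of the PRAMEF cluster and the nearest fitted gene on each side, by distance in kb of the gene's middle from the first base of the cluster. Ticks mark cluster genes with too few counts for the fit. The 12 fitted cluster genes, 7 of them chosen for their rise, lie between 0.92 and 1.87, DHRS3 at -0.11 and LRRC38 at 0.66.

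Around PRAME on chromosome 22 none of the 3 nearest fitted genes on each side passed edgeR's test. ZNF280A, which lies closest on one side, had a fitted log2 change of -0.99 ± 0.86 (edgeR adjusted p = 0.54), and ZNF280B of 0.00 ± 0.16 (edgeR adjusted p = 0.994). IGLV1-51 stood at -0.31 (edgeR adjusted p = 0.565). On the other side GGTLC2 stood at 0.23 (edgeR adjusted p = 0.599), GNAZ at 0.30 (edgeR adjusted p = 0.257) and RAB36 at 0.60 ± 0.14 (edgeR adjusted p = 0.0518). DESeq2 called RAB36 (adjusted p = 0.0498).

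Genes that share a known setting with the PRAME family were counted from lists, with the 8 described genes left out. Of the early embryo and DUX4-induced genes, 37 in the table lay outside the cluster, and 35 of these had at most 4 counts in every library, 26 of them 0. DUX4 itself had 1 count in empty vector replicate 2 and 0 in the other 5 libraries, and ZSCAN4, its best known target, had 2 counts in empty vector replicate 3 and 0 elsewhere. The 2 that could be fitted were KLF17, a factor of the early embryo, at 0.28 (edgeR adjusted p = 0.267), and KHDC1, at 0.08 (edgeR adjusted p = 0.843). HNRNPCL3, which lies inside the cluster, was the 1 called gene of the 4 fitted on that list, against 5.60% of all tested genes.

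Of the cancer-testis antigen genes, the wider class to which PRAME belongs, 23 of 85 in the table were fitted. Among these 0 passed edgeR's test, against 5.60% of all tested genes. DESeq2 and limma-voom called 0 as well. Some of the 23 had an unadjusted p under 0.05. Such counts are not given for any list, because that share was not counted over all genes. Their median log2 fold change was 0.02, against -0.0035 for all genes. MAGEA1 stood at 76.7 TPM in the empty vector libraries with a log2 fold change of 0.03, and CT83 at 101.2 TPM with 0.01. Of 53 germline genes 16 were fitted and 0 passed in edgeR, DESeq2 or limma-voom, with a median of 0.00. With 23 and 16 genes fitted, a count of 0 cannot be told from the 5.60% called among all tested genes.

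Of the genes of DNA methylation and gene silencing, 53 of 55 were fitted and 1 was called, against 5.60% of all tested genes. It was MBD3, a subunit of the NuRD repressor complex, which rose with a log2 fold change of 0.43 ± 0.08 (edgeR adjusted p = 0.0309). DESeq2 called 3 genes of this list, and limma on log2(TPM + 1) called 0. The MBD3 call was lost without any 1 of the overexpression libraries or without empty vector replicate 2, with an adjusted p of up to 0.102. The list's median was 0.02. DNMT1, the maintenance DNA methyltransferase, stood at 0.07 (edgeR adjusted p = 0.447).

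Of the 21 genes of the cullin-2 ubiquitin ligase, in which PRAME is a substrate receptor, all were fitted and 1 was called, a share near the 5.60% of all tested genes. It was VHL, itself another substrate receptor of that ligase. VHL fell by 0.29 on the log2 scale ± 0.04 (edgeR adjusted p = 0.0147), and its call was lost without overexpression replicate 2 or 3, with an adjusted p of up to 0.0614. The median of the list was -0.01, and CUL2, the scaffold, stood at -0.08 (edgeR adjusted p = 0.444).

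Of the retinoic acid receptors and targets, on which PRAME is known to act, 29 of 40 were fitted, 2 rose and 1 fell, against 5.60% called among all tested genes, with a median of -0.06. DESeq2 called 5 genes of this list. CRABP2, which carries retinoic acid to the nucleus, rose by 0.60 ± 0.05 (edgeR adjusted p = 0.00274). ALDH1A2, which makes retinoic acid, had 16, 23 and 18 counts against 53, 38 and 48 and rose by 1.32 ± 0.25 (edgeR adjusted p = 0.0288), a call that was lost when any 1 of the 6 libraries was left out (adjusted p up to 0.102). On the deposited TPM its log2 difference was 0.76 with a pseudocount of 0.1 and 0.26 with a pseudocount of 1, and limma did not call it (adjusted p = 0.22 and 0.226). TGM2, a transglutaminase that retinoic acid can induce, fell by 0.69 ± 0.04 (edgeR adjusted p = 0.000528). RARA, a retinoic acid receptor, stood at -0.11 (edgeR adjusted p = 0.482). The 3 called genes did not move in 1 direction.

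**Figure D5:**
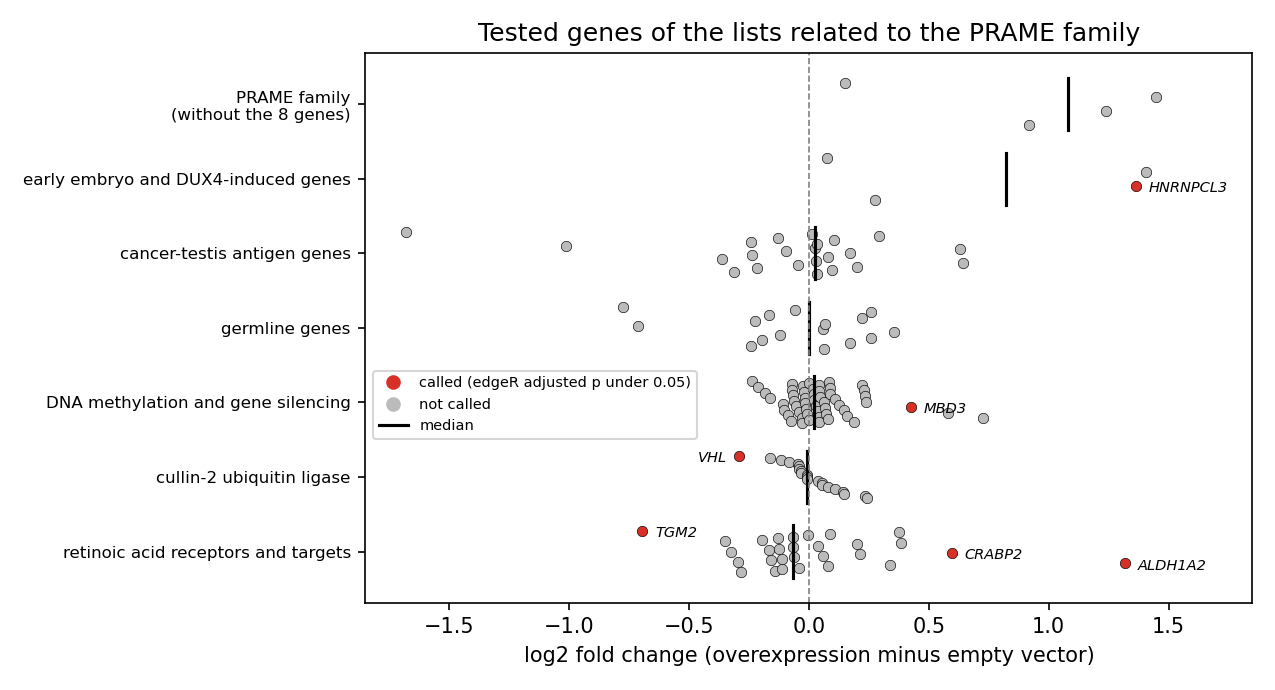
Log2 fold change (overexpression minus empty vector) of each fitted gene of 7 lists related to the PRAME family, without the 8 genes described, with called genes in red and the median as a bar. The cancer-testis and germline lists have medians of 0.02 and 0.00 and no called gene, against 5.60% of all tested genes. HNRNPCL3 is the called gene of the early embryo list.

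The labelled cell type was checked against markers. KLK2, KLK3 and KLK4, genes that define luminal prostate cells and LNCaP, had 0 counts in all 6 libraries, as did TMPRSS2 and FOLH1. KRT8, a keratin of simple epithelia, had 53252 to 72353 counts. Of the 14 prostate markers 8 were fitted, so the 5 genes at 0 do not stand for the whole list. The 14 prostate markers summed to 2270 to 2542 CPM with the empty vector and 2732 to 2904 CPM with LINC01518. KRT8 is one of the 14 and, at these counts, makes up a large part of that sum, whereas the 5 genes at 0 add nothing. The sum therefore does not describe the genes that define prostate cells. KRT8 was the 1 called gene of the 8 fitted, against 5.60% of all tested genes. It rose by 0.29 ± 0.05 (edgeR adjusted p = 0.0187), a call lost without any 1 of the overexpression libraries or without empty vector replicate 2. Of 25 trophoblast markers 13 were fitted, 5 rose and 1 fell, against 5.60% called among all tested genes, and 5 were at 0, among them PSG3, CSH1 and HSD3B1. Their sum was 1726 to 1821 CPM with the empty vector and 1975 to 2176 CPM with LINC01518. It was higher in every overexpression library, as were the prostate sum above and the fibroblast sum below, so this was not particular to the trophoblast markers. Those that rose were ALPP (0.67, edgeR adjusted p = 0.00179), INSL4 (1.33, edgeR adjusted p = 0.00258), ALPG (0.62, edgeR adjusted p = 0.00452), CGA (0.52, edgeR adjusted p = 0.0343) and PSG5 (0.47, edgeR adjusted p = 0.0441), and KRT7 fell by 0.29 (edgeR adjusted p = 0.0187). The call of PSG5 was lost without any 1 of the 6 libraries, that of CGA without overexpression replicate 1 or any 1 of the empty vector libraries, and that of KRT7 without any 1 of the overexpression libraries or empty vector replicate 2. Of 16 germ cell markers 11 were at 0, DDX4 and DAZL among them, 2 were fitted and 0 were called by edgeR, DESeq2 or limma-voom. The sum of the 16 was 9.76 to 11.6 CPM against 9.95 to 12.7 CPM. Of 12 leukocyte markers 6 were at 0, PTPRC among them, and 0 of the 5 fitted were called by the same 3 tools. The leukocyte sums were 7.10 to 7.30 CPM against 6.96 to 8.996 CPM. With 2 germ cell and 5 leukocyte markers fitted, a count of 0 cannot be told from the 5.60% called among all tested genes. Of 10 fibroblast markers 4 were at 0, LUM and PDGFRA among them. Of the 4 fitted 2 rose, against 5.60% called among all tested genes. These were COL1A1 (0.47, edgeR adjusted p = 0.00452) and PDGFRB (0.31, edgeR adjusted p = 0.0471). The fibroblast sums were 112.0 to 122.0 CPM against 154 to 159 CPM. The call of PDGFRB was lost without any 1 of the 6 libraries, and on TPM its log2 difference was -0.059 or -0.063, depending on the pseudocount. The part of these cell type markers in the PRAMEF difference was not tested.

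The genes whose log2 CPM followed the summed PRAMEF counts most closely over the 6 libraries, among 13481 fitted genes outside the family, were MUC13, a membrane mucin (Pearson r = 0.997), CLSTN1 (0.997), RNF19B (0.997), L1CAM, a cell adhesion molecule (0.996), and LINC03040 (0.996). Their log2 fold changes were 0.15 to 0.43, well below that of the PRAMEF sum. HNRNPCL3 ranked 232 by this measure (r = 0.953). For PRAME the closest were ETV4, an ETS transcription factor (r = 0.992), FTSJ1, a tRNA methyltransferase (0.990), NAALAD2 (0.979), P3H3 (0.979) and THUMPD2 (0.978), with log2 fold changes from -0.16 to -0.03. These correlations are over 6 points that share the group difference and the scaling of each library, so they describe likeness in these libraries only.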

How the data were processed

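Per the submitters' processing notes, the tools were Trimmomatic 0.36, HISAT2, featureCounts, Subread 1.5.1 and DESeq, and the build was GRCh38. The authors deposited unnormalized gene counts and gene TPM values. The sources used here do not give the TPM tool, the annotation, the strand setting or the handling of multiply matching reads. All 12 columns were matched to samples by name. Libraries held 38161544 to 42553688 counts. Symbols matched 20148 of 20263 genes and GENCODE 29 positions 20224.

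Counts were fitted with edgeR 4.0.16 in R 4.3.3 (filterByExpr, minimum count 10 and total 15, TMM scaling, robust quasi-likelihood F test, group as the only term). The filter left 13543 genes, and p-values were Benjamini-Hochberg adjusted over them and called under 0.05. The SE is the size of the log2 fold change divided by the square root of F, and that of a sum comes from the library SDs. Replicates of a group differed beyond sampling noise. The fit was tested on simulated data. Alternatives used limma 3.58.1, DESeq2 1.42.0, other scalings and filters, and log2(TPM + 1) or log2(TPM + 0.1), and left out each library. Transcripts and promoters were aligned and searched with Biopython 1.88 and MAFFT 7.526.

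The members, gene lists and motifs were chosen with earlier results of these data known. Named genes were the 8 members, relatives with at least 10 counts in all, genes in or next to the cluster and PRAME (3 fitted genes on each side), called genes of each list (at most 6, smallest p first), the 5 genes most like the PRAMEF sum and PRAME, and cell line markers. MAGEA1, CT83, DNMT1, CUL2, RARA, KLF17, KHDC1, DUX4 and ZSCAN4 were named outside this rule after their values were seen. The level of one prostate marker is not reported here.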

Additional observations from a re-analysis of the deposited data

How the results depend on the processing

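The log2 difference of the summed PRAMEF counts was 1.32 and stayed between 1.21 and 1.32 under the other scalings, filters and tools, the lowest on log2(TPM + 1), and between 1.24 and 1.45 when 1 library was left out. Each of the 7 PRAMEF genes kept its direction in every alternative that could be fitted. On log2(TPM + 1) the differences shrank to 0.38 for PRAMEF7, 0.56 for PRAMEF4, 0.63 for PRAMEF26, 0.70 for PRAMEF25, 0.82 for PRAMEF15 and 1.07 for PRAMEF27, since a pseudocount of 1 weighs most on low TPM, and PRAME stood at -0.14. The number of genes called over the whole table was 759, against 1319 with DESeq2, 219 on log2(TPM + 1), 225 on log2(TPM + 0.1) and 193 to 458 when 1 library was left out. The lists held 15 called genes, and 7 to 11 when 1 library was left out. PDGFRB reversed to -0.059 on log2(TPM + 1) and to -0.063 on log2(TPM + 0.1), and the cause was not tested. Nothing in the labels says whether the replicate numbers pair the samples, and the main fit did not pair them. Same-numbered libraries had correlations of deviations of 0.0367, 0.0547 and 0.0449, although each library correlated best with its own number, a hint from the data and not the design. With the replicate number as a block, 232 genes were called over the table and 6 in the lists. Under the block HNRNPCL3 had an adjusted p of 0.055 and the summed PRAMEF difference was 1.32. At these depths PRAMEF7 rested on 4 to 17 counts a library.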

Other observations

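PRDM2, the second fitted gene beyond the far end of the cluster, fell into 2 sets of libraries that cut across the labels. It had 1418, 1381 and 287 counts in the empty vector libraries and 325, 304 and 1239 in the overexpression libraries. ZNF280A, the neighbour of PRAME, also spread widely, with 12, 34 and 29 counts against 24, 13 and 0.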
